A study of Drosophila melanogaster with 18 samples.

Results

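Wing discs in which clones of cells expressed a dominant negative Tip60 for 78 h were compared with control discs of the same duration, over all genes. The comparison used 6 of the series' 18 libraries, 3 from Tip60dn discs and 3 from control discs. They were chosen by their labels alone and not by any measured value. The series sequenced polyadenylated RNA of wing imaginal discs from larvae at the wandering end of the last instar of Drosophila melanogaster in 6 groups of 3 libraries, with dominant negative Tip60 (Tip60dn), wild type Tip60 (Tip60wt) or a control, each for 48 h or 78 h. Its title asks what the Tip60/NuA4 complex does in cell cycle progression and in the exit from mitotic cycles.

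All groups had a heat shock of 30 min at 37 °C that started overlapping clones, were kept at 18 °C to hold the transgene silent, and were moved to 28 °C for the stated duration before dissection. A disc was therefore a mosaic, and each library pooled RNA of 40 discs. The change that makes the transgene dominant negative, the driver and the genotype of the control are not stated in the labels. Nothing in the labels says that the 3 libraries of a group came from separate cultures, so p-values measure the spread between these libraries, which may be technical. In bulk RNA of a mosaic tissue, fewer cells of a type and less RNA per cell cannot be told apart.

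Tip60 is the acetyltransferase of the NuA4 complex, which acetylates histones H4 and H2A and, with the Domino ATPase, exchanges the histone variant H2Av. The complex is known as a coactivator of many promoters and as part of the response to broken DNA. The wing disc is a sac of epithelium that proliferates through larval life, becomes the wing and dorsal thorax, and can regrow after damage through JNK and JAK/STAT signalling.

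The 9 libraries of 78 h held 72693686 to 105716567 counts, and mt:lrRNA, the most abundant transcript, took 2.43% to 3.05% of them. Levels are given as CPM, counts per 1e6 counts of a library after TMM scaling, and a gene is called higher or lower at an adjusted p under 0.05, from edgeR's quasi-likelihood test with Benjamini-Hochberg adjustment over all genes tested. A first principal component with 41.9% of the variance held the Tip60dn libraries at -27.45, -71.23 and -43.75, the Tip60wt libraries at 19.13, 6.24 and 24.39, and the control libraries at 30.61, 33.53 and 28.52. All 16 genes of the wing disc identity list were detected in each of these libraries, with a summed level of 4759 to 5233 CPM in Tip60dn discs and 4611 to 4630 CPM in control discs.

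A pair of libraries stood apart by RNA of other organs. Tip60dn replicate 2 held 460.9 CPM of 38 midgut digestive enzyme genes, while the other Tip60dn libraries held 14.3 and 29.9 CPM, the Tip60wt libraries 13.1, 63.9 and 11.8 CPM, and the control libraries 10.9, 11.3 and 15.2 CPM. That list was put together after these values were seen. Control replicate 1 held 3190 CPM of 14 salivary gland genes, against 355.0 and 360.3 CPM in the other control libraries and 363.7, 446.6 and 483.7 CPM in Tip60dn discs. Hemocyte genes summed to 668, 1033 and 1008 CPM in Tip60dn discs, 529, 564 and 608 CPM in Tip60wt discs, and 586, 631 and 622 CPM in control discs. The part of these cells and organs in the results below was not tested, except where values without a library are given.

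**Figure D1:**
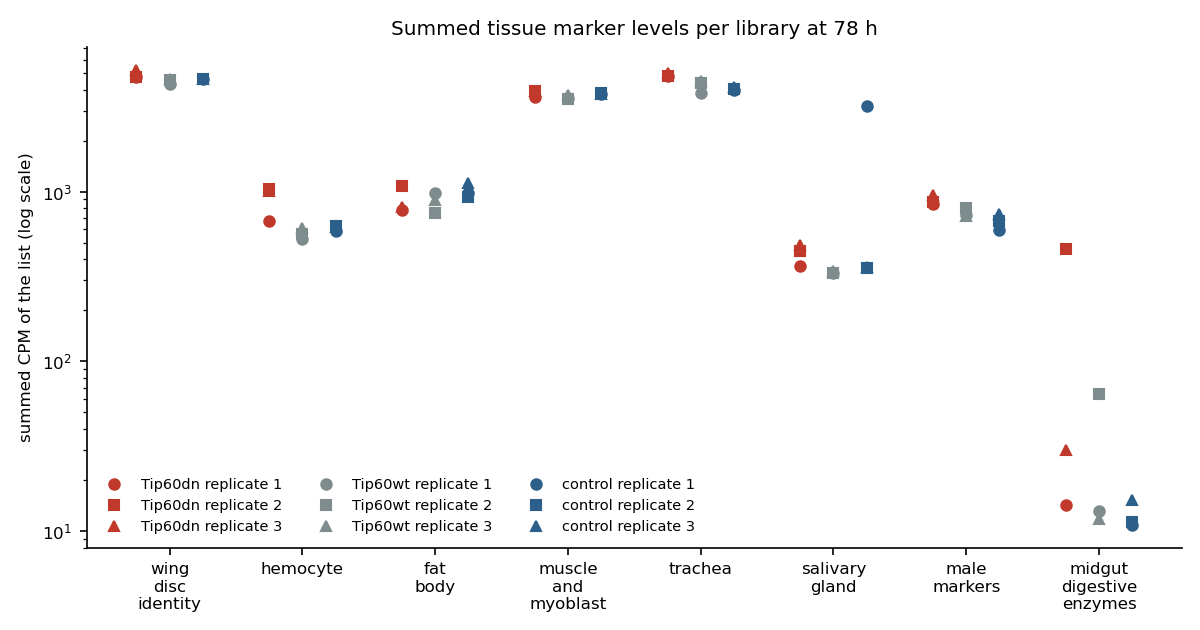
Summed CPM (log scale) of 8 marker lists in each of the 9 libraries of 78 h, with colour for the group and symbol for the replicate. Tip60dn replicate 2 stands at 460.9 CPM of midgut digestive enzymes and control replicate 1 at 3190 CPM of salivary gland genes, while the wing disc identity sums of the Tip60dn and control libraries lie between 4611 and 5233 CPM.

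Tip60 itself was the check of the labels. The gene (FBgn0026080, chromosome X, 4114800 to 4117487, BDGP6) stood at 1644, 2176 and 2429 CPM in Tip60dn discs, 984, 1764 and 1990.4 CPM in Tip60wt discs and 33.2, 44.9 and 38.3 CPM in control discs (Tip60dn over control: log2 fold change 5.75, SE 0.30, adjusted p = 3.05e-06). Both transgene groups lay far above the control with no overlap, and since both carry Tip60 sequence the counts do not check which form a library expressed. On the opposite strand 20.97% of its exon bases overlap tyf, and the labels do not say how featureCounts treated strand.

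A large share of the measured transcripts differed between Tip60dn and control discs, most of them by little. Of 10598 genes tested, 4683 were called (44.2%), with 2378 higher in Tip60dn discs (22.4%) and 2305 lower (21.7%). The median absolute log2 fold change of the called genes was 0.33, and the median log2 fold change of all tested genes was 0.03. A change of at least 2-fold was seen in 846 genes that were higher (7.98%) and 90 that were lower (0.849%). The 3 libraries of Tip60dn and the 3 of control did not overlap for 6008 genes (56.7%), of which 4580 were among the 4683 called. For a gene named below by its small adjusted p, a lack of overlap is therefore a description and no further test. Without Tip60dn replicate 2, 3710 genes were called, of which 3623 were among the 4683 and in the same direction. Without control replicate 1, 3610 genes were called.

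By mean level, 1247 of the 6301 genes at 10 CPM or more were higher (19.8%) and 2119 lower (33.6%). Of the 4297 genes under 10 CPM, 1131 were higher (26.3%) and 186 lower (4.3%). The median log2 fold change was -0.05 at 10 CPM or more and 0.39 under 10 CPM. A low gene is tested where enough libraries reach the minimum count, so one near 0 in the control enters through the libraries in which it is high, and the counts under 10 CPM are given as a description. With no filter 2017 genes were higher and 2407 lower. At 100 CPM or more, 431 of 2141 genes were higher (20.1%) and 833 lower (38.9%). The counts of the lists below are to be read against these shares and those over all genes. Of the 562 tested non-coding RNA genes, 125 were higher and 30 lower. Called genes were spread over the chromosomes, with 382 higher and 354 lower of 1711 on the X and 22 higher and 17 lower of 89 on chromosome 4.

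**Figure D2:**
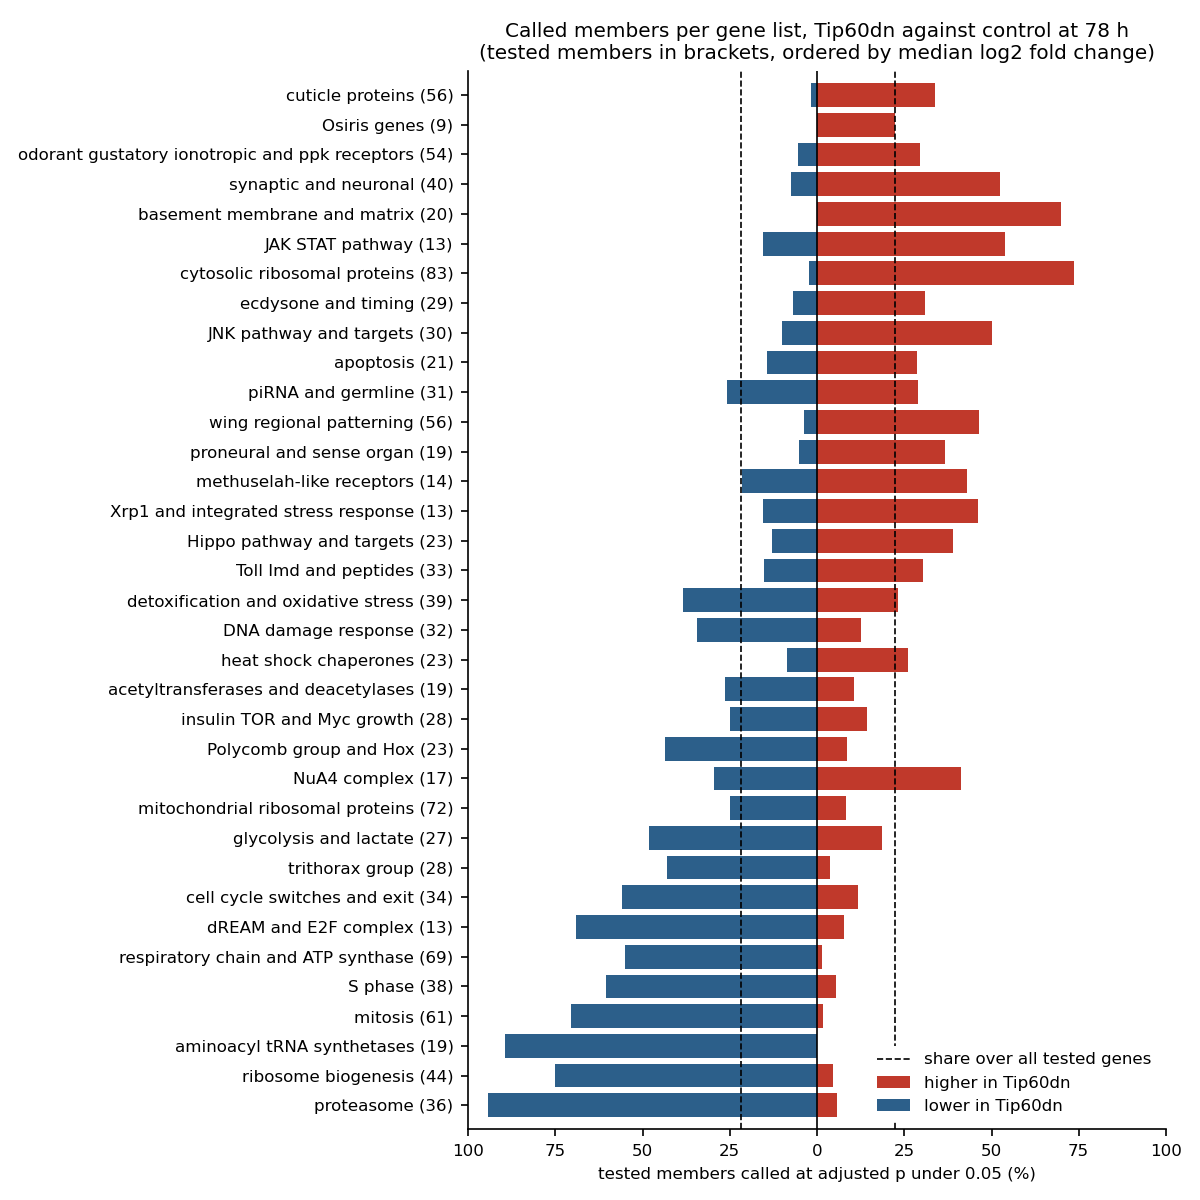
Share of tested members (%) called higher (red, right) or lower (blue, left) in Tip60dn discs than in control discs at 78 h, for 35 gene lists. The dashed lines mark the shares over all tested genes, 22.4% higher and 21.7% lower; the proteasome list had 34 of 36 members lower and the cytosolic ribosomal protein list had 61 of 83 higher.

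Division genes were lower in Tip60dn discs, by small amounts that exceeded the spread between libraries. Of 61 mitosis genes, 43 fell (70.5%) and 1 rose (1.6%). Over all genes 21.7% fell and 22.4% rose, and at 10 CPM or more 33.6% and 19.8%. The median log2 fold change was -0.22 in the list, against 0.03 over all genes and -0.05 at 10 CPM or more. Klp67A (FBgn0004379, chromosome 3L, 9362636 to 9367046), a kinesin of the spindle, stood at 69.4, 63.4 and 65.2 CPM in Tip60dn discs, against 93, 95.5 and 93.4 CPM in control discs (log2 fold change -0.51, SE 0.042, adjusted p = 4.41e-05). The groups did not overlap, and the Tip60wt libraries at 90.8, 89.9 and 85.4 CPM lay between them. Klp61F, the kinesin-5 that separates spindle poles, fell to 177, 170.0 and 167 CPM in Tip60dn discs, against 215, 224 and 226 CPM in control discs (log2 fold change -0.37, SE 0.036, adjusted p = 9.38e-05). The centromere assembly factor gene cal1 had 65.8, 58.3 and 62.4 CPM in Tip60dn discs, against 88.1, 84.3 and 87.9 CPM in control discs (log2 fold change -0.48, SE 0.048, adjusted p = 0.000107). For these genes every Tip60dn library lay below every control library. Mis12, a kinetochore gene, was the 1 member that rose (log2 fold change 0.33, adjusted p = 0.00795).

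S phase genes showed the same direction, with 23 of 38 lower (60.5%), 2 higher (5.3%) and a median log2 fold change of -0.20. Gnf1, the large subunit of the clamp loader, had 107, 105.6 and 103 CPM in Tip60dn discs, against 130.4, 134 and 131 CPM in control discs (log2 fold change -0.33, SE 0.034, adjusted p = 0.000134). Mcm10, needed to start replication forks, fell further, to 0.684 times the control level (log2 fold change -0.55, SE 0.065, adjusted p = 0.000236), and PolD1, the catalytic subunit of polymerase delta, fell to 0.781 times (log2 fold change -0.36, SE 0.042, adjusted p = 0.000249). The Tip60dn and control libraries of these 3 genes did not overlap. Thymidylate synthase, Ts, and the GINS subunit gene Psf3 were the 2 that rose, a count that was 1 when any 1 of the 6 libraries was left out, with DESeq2's size factors or library sizes as the scaling, with no filter and in DESeq2. Mitosis and S phase were called lower for 34 and 18 genes without Tip60dn replicate 2.

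Regulators of the cycle and of its exit were called lower in 19 of 34 cases (55.9%) and higher in 4 (11.8%). Their median log2 fold change was -0.15. CycA, the cyclin of S phase and G2, stood at 283, 280.3 and 269.9 CPM in Tip60dn discs, against 354, 353 and 361 CPM in control discs (log2 fold change -0.36, SE 0.031, adjusted p = 5.48e-05). Cdk4, the partner of cyclin D, had 76.9, 77.3 and 77.3 CPM in Tip60dn discs, against 102, 98.5 and 107 CPM in control discs (log2 fold change -0.41, SE 0.040, adjusted p = 9.38e-05), and tws, a regulatory subunit of the PP2A phosphatase, had 346, 344 and 354 CPM in Tip60dn discs, against 451, 424 and 447 CPM in control discs (log2 fold change -0.34, SE 0.033, adjusted p = 9.46e-05). None of these sets of libraries overlapped. Tip60wt against control also called tws lower (log2 fold change -0.165, adjusted p = 0.026). The G1/S cyclin gene CycE fell by 0.20 log2 (SE 0.045, adjusted p = 0.00623), and dap, the CDK inhibitor that restrains cyclin E at cell cycle exit, fell by 0.24 (SE 0.054, adjusted p = 0.00558). The genes that rose were trbl, gig, Cks85A and E2f1. The mitotic phosphatase stg had 151, 161 and 176 CPM in Tip60dn discs and 159, 162 and 155 CPM in control discs, which overlapped (adjusted p = 0.755), and the retinoblastoma gene Rbf had a log2 fold change of -0.08 (adjusted p = 0.16). For fzr, the APC/C activator used in G1 and in endocycles, the levels were 42.3, 39.9 and 37.6 CPM in Tip60dn discs and 44.5, 46.5 and 42 CPM in control discs. It missed the threshold at an adjusted p of 0.0541 and passed it under other settings, among them DESeq2 (adjusted p = 0.0382) and DESeq2's size factors in the edgeR fit (0.0489).

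The dREAM and E2F list, whose products repress or activate the cell cycle programme, had 9 of 13 members lower (69.2%) and 1 higher (7.7%). Dp (FBgn0011763, chromosome 2R, 13222433 to 13228202), the obligate partner of both E2F proteins, had 268, 245 and 242 CPM in Tip60dn discs, against 329.9, 338 and 324 CPM in control discs (log2 fold change -0.39, SE 0.047, adjusted p = 0.00025). The Tip60wt libraries, at 344, 328 and 316 CPM, lay near the control. E2f2, the repressing E2F, fell by 0.27 log2 (SE 0.040, adjusted p = 0.00083) and lin-52, a dREAM subunit, by 0.35 (SE 0.048, adjusted p = 0.000542). On the other strand 47.94% of the lin-52 exon bases overlap CG15772 and 19.93% of those of E2f2 overlap Mpp6, so their counts are uncertain. E2f1, the activating E2F, went the other way, with 365, 391 and 404 CPM in Tip60dn discs, against 327, 349 and 326 CPM in control discs (log2 fold change 0.21, SE 0.047, adjusted p = 0.00562). Without Tip60dn replicate 2 the dREAM and E2F list had 6 members lower and 1 higher.

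**Figure D3:**
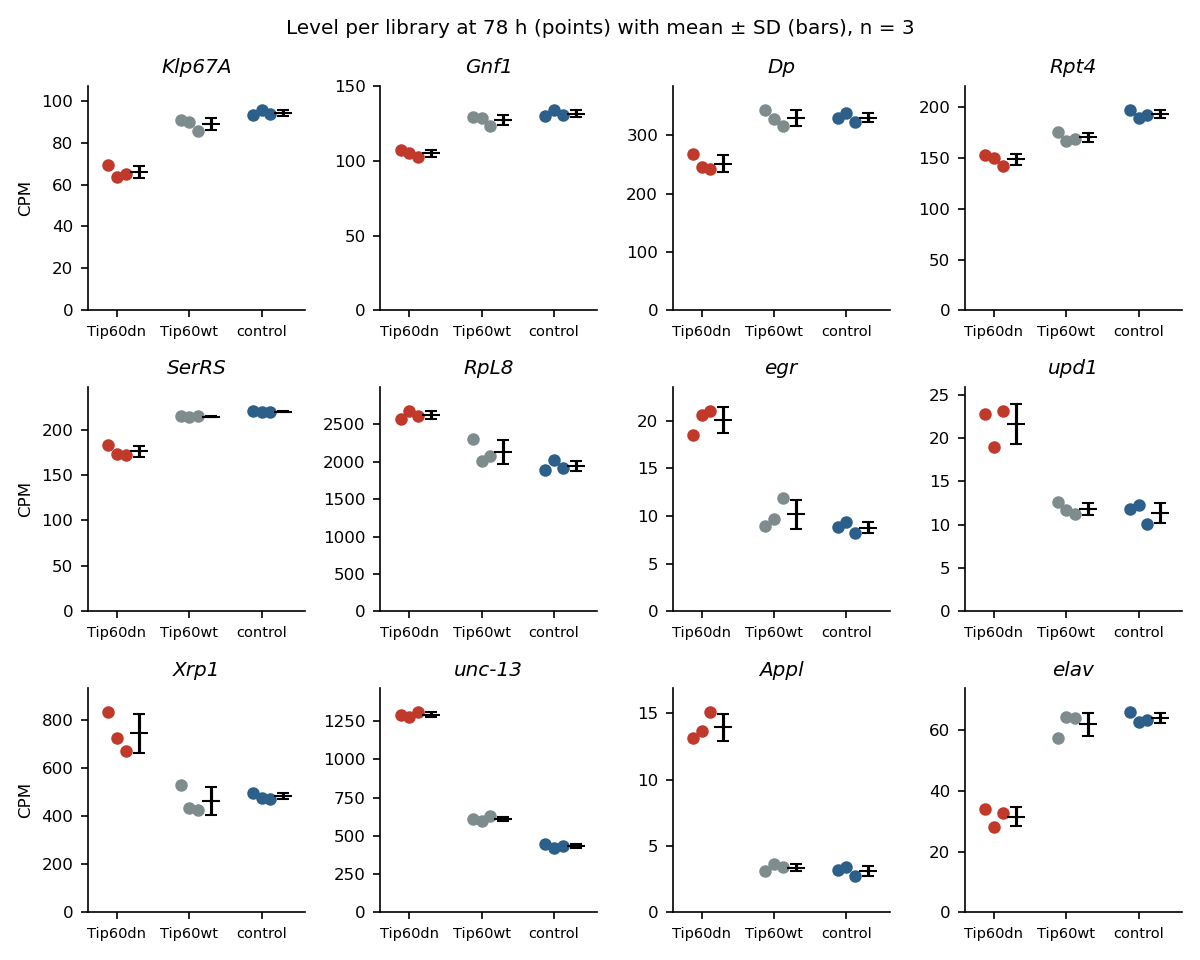
Level (CPM) of 12 genes in each Tip60dn, Tip60wt and control library at 78 h, with the mean ± SD of the 3 libraries as a bar beside the points; every axis starts at 0. In all 12 the Tip60dn and control libraries do not overlap, and in Klp67A, Gnf1, Rpt4, SerRS and unc-13 every Tip60wt library lies between them. The 12 genes were named for a small adjusted p in their list, which favours groups that do not overlap. Of all tested genes 56.7% did not overlap.

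Genes of protein synthesis and turnover split by family. Of 36 tested proteasome genes, 34 fell (94.4%) and 2 rose (5.6%), and the median log2 fold change was -0.34. Rpt4, an ATPase of the 19S cap, had 153, 150.1 and 142 CPM in Tip60dn discs, against 197, 189 and 192 CPM in control discs (log2 fold change -0.38, SE 0.038, adjusted p = 0.000103). The core subunit genes Prosalpha1 and Prosalpha5 fell to 0.664 and 0.736 times the control level (adjusted p = 0.00011 and 0.000115). For these 3 the libraries did not overlap. Tip60wt against control also called Rpt4 lower (log2 fold change -0.18, adjusted p = 0.030) and Prosalpha1 lower (-0.33, adjusted p = 0.016). The members that rose, Rpt3R and Rpt6R, are related copies of 19S ATPase genes at low levels. Without Tip60dn replicate 2 the counts were again 34 lower and 2 higher.

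Aminoacyl tRNA synthetases, which charge tRNAs for translation, fell in 17 of 19 cases and rose in 0, with a median of -0.27. The median log2 fold change of the ribosome biogenesis list was -0.29, with 33 of 44 lower and 2 higher. SerRS stood at 183, 173 and 172 CPM in Tip60dn discs, against 220.4, 219 and 219.7 CPM in control discs (log2 fold change -0.32, SE 0.031, adjusted p = 9.38e-05), without overlap. The nucleolar protein gene Nopp140 fell to 322, 311 and 308 CPM in Tip60dn discs, against 398, 402 and 389.9 CPM in control discs (log2 fold change -0.34, SE 0.033, adjusted p = 9.38e-05). The ribosome biogenesis genes l(3)72Dn and l(2)k09022 fell by 0.49 and 0.43 log2 (adjusted p = 5.95e-05 and 9.38e-05). The members that rose were Non1 and vito, and the count was 1 in 12 of the 14 other settings, Tip60dn replicate 1 left out and the 1 CPM filter being the exceptions.

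Genes for the structural proteins of the cytosolic ribosome moved the opposite way: 61 of 83 rose (73.5%) and 2 fell (2.4%), with a median log2 fold change of 0.22. RpL8 (FBgn0261602, chromosome 3L, 2587456 to 2588883) stood at 2572, 2678 and 2608 CPM in Tip60dn discs, against 1887, 2023 and 1922 CPM in control discs (log2 fold change 0.43, SE 0.056, adjusted p = 0.000393). RpL15 had 1771, 1949 and 1788 CPM in Tip60dn discs, against 1358, 1308 and 1309 CPM in control discs (log2 fold change 0.47, SE 0.060, adjusted p = 0.000349). Both sets of libraries were separate, and the Tip60wt level of RpL8 was 2310.5, 2005 and 2072 CPM. RpL22 rose to 1.41 times the control level, but 34.27% of its exon bases overlap lncRNA:CR42491 on the same strand. The 2 that fell were RpS15Ab and RpLP0-like. Without Tip60dn replicate 2, 42 members were higher and 2 lower, and with library sizes as the only scaling 51 were higher and 2 lower.

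Mitochondrial genes were lower in one family and mixed in another. Of 69 tested genes of the respiratory chain and ATP synthase, 38 fell (55.1%) and 1, ND-20L, rose (1.4%), with a median of -0.18. The call of ND-20L was lost without Tip60dn replicate 3. COX5B, a subunit of cytochrome c oxidase, had 69.9, 67.1 and 64.8 CPM in Tip60dn discs, against 88.4, 88.3 and 89 CPM in control discs (log2 fold change -0.40, SE 0.040, adjusted p = 0.000103), and ATPsynCF6 of ATP synthase fell by 0.38 log2 (SE 0.038, adjusted p = 0.000104). COX7A fell by 0.42 (SE 0.047, adjusted p = 0.000197). In Tip60wt discs ATPsynCF6 was also called below the control (log2 fold change -0.19, adjusted p = 0.024). Mitochondrial ribosomal proteins had 18 of 72 lower, a share close to the 21.7% over all genes, and 6 higher. The count of lower members was 10 without Tip60dn replicate 3 and 9 without control replicate 3, and that of higher members was 3 without Tip60dn replicate 2 or control replicate 1 and 3 with no filter. In this family mRpL20 fell to 0.576 times the control level (adjusted p = 1.52e-05), mRpS30 to 0.745 times (adjusted p = 0.000239) and tko to 0.788 times (adjusted p = 0.000909). For mRpL20 the Tip60wt level was also called below the control (log2 fold change -0.49, adjusted p = 0.00099).

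**Figure D4:**
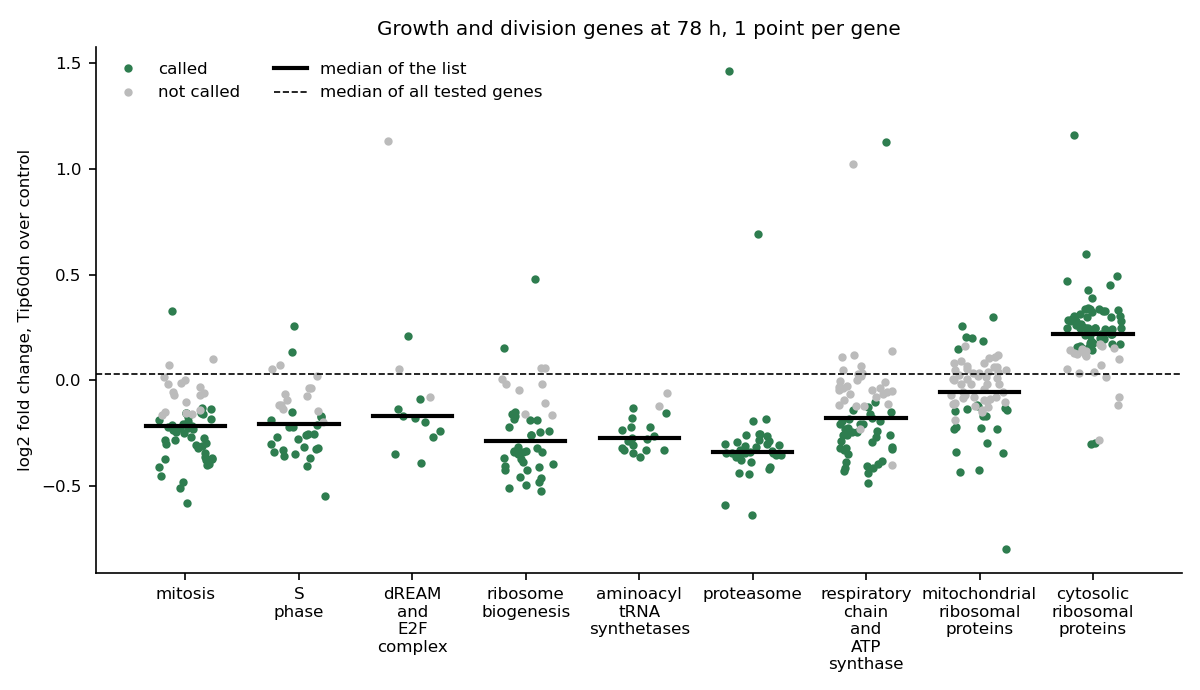
Log2 fold change (Tip60dn over control at 78 h) of each tested gene in 9 growth and division lists, with 1 point per gene, called genes in green, the list median as a bar and the median of all tested genes as a dashed line. The medians run from -0.34 for the proteasome to 0.22 for cytosolic ribosomal proteins.

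Genes of sugar metabolism moved in both directions. In the glycolysis and lactate list 13 of 27 genes fell (48.1%) and 5 rose (18.5%). Those that rose were Ldh, trh, Sln, Hex-A and Glut1, of which trh encodes a transcription factor of the trachea. Gapdh2, a glyceraldehyde-3-phosphate dehydrogenase, had 446, 453 and 418 CPM in Tip60dn discs, against 639.5, 642 and 628 CPM in control discs (log2 fold change -0.54, SE 0.039, adjusted p = 2.03e-05), and its paralog Gapdh1 fell by 0.58 log2 (SE 0.052, adjusted p = 6.33e-05). The gluconeogenic fructose bisphosphatase gene fbp fell to 28.6, 28.1 and 21 CPM in Tip60dn discs, against 65.1, 60.5 and 63.6 CPM in control discs (log2 fold change -1.28, SE 0.11, adjusted p = 4.18e-05). Ldh, lactate dehydrogenase and chosen after its values were seen, stood at 49.4, 31.7 and 29.7 CPM in Tip60dn discs, against 9.35, 6.7 and 9.29 CPM in control discs (log2 fold change 2.13, SE 0.21, adjusted p = 9.26e-05). In each of these genes all Tip60dn libraries lay on one side of all control libraries. The number of higher members was 2 without Tip60dn replicate 3, and also 2 without control replicate 1 or without control replicate 2. In the insulin, TOR and Myc list 7 of 28 fell and 4 rose. The lower share lay between the 21.7% over all genes and the 33.6% at 10 CPM or more. The higher share was under the matching 22.4% and 19.8%. The lower count was 3 without Tip60dn replicate 2, control replicate 1 or control replicate 3, and 4 without Tip60dn replicate 3. The list members Akt, a kinase of the insulin pathway, and slif, an amino acid transporter, fell to 0.891 and 0.608 times the control level (adjusted p = 0.00147 and 0.00166).

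A larger share of the JNK and JAK/STAT lists was higher in Tip60dn discs than the 22.4% over all genes. Whether the discs were damaged or regrew was not tested. In the JNK list 15 of 30 genes rose and 3 fell (bsk, Src64B and Keap1), with a median log2 fold change of 0.20. The TNF ligand gene egr (FBgn0033483, chromosome 2R, 10078366 to 10084210) stood at 18.5, 20.6 and 21 CPM in Tip60dn discs, against 8.84, 9.33 and 8.2 CPM in control discs (log2 fold change 1.19, SE 0.11, adjusted p = 6.25e-05). Its receptor gene wgn had 74.7, 77.9 and 80.8 CPM in Tip60dn discs, against 51.5, 56.8 and 50.1 CPM in control discs (log2 fold change 0.56, SE 0.066, adjusted p = 0.000239). Ets21C, a transcription factor gene induced by JNK, had 4.9, 5.91 and 5.56 CPM in Tip60dn discs, against 1.17, 1.78 and 1.2 CPM in control discs (log2 fold change 1.98, SE 0.22, adjusted p = 0.000197), although 28.33% of its exon bases overlap nAChRbeta3 on the other strand. For all 3 the libraries of the groups were apart, and the Tip60wt libraries of egr stood at 8.92, 9.74 and 11.9 CPM. The other members that rose were Traf4, Ilp8, scaf, kay, Mmp1, Jra, Gadd45, Mmp2, cher, Traf6, puc and mol, which include the AP-1 genes kay and Jra, the JNK phosphatase gene puc and both matrix metalloproteinases. Ilp8, a relaxin-like signal of damaged discs that delays pupariation and was chosen after its values were seen, had 4.42, 1.37 and 1.31 CPM in Tip60dn discs, against 0.201, 0.428 and 0.25 CPM in control discs (log2 fold change 3.01, SE 0.52, adjusted p = 0.00171). Replicate 1 was the highest of the 3 Tip60dn libraries.

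The JAK/STAT list had 7 of 13 genes higher (upd1, upd2, Socs36E, zfh1, upd3, dome and et, 53.8%) and 2 lower (15.4%), with a median of 0.27. The ligand gene upd1 (FBgn0004956, chromosome X, 18305354 to 18309291) stood at 22.8, 19 and 23.1 CPM in Tip60dn discs, against 11.8, 12.3 and 10.1 CPM in control discs (log2 fold change 0.92, SE 0.10, adjusted p = 0.000136). The second ligand gene, upd2, was low in all libraries, with 1.11, 1.79 and 1.3 CPM in Tip60dn discs, against 0.302, 0.24 and 0.54 CPM in control discs (log2 fold change 1.96, SE 0.35, adjusted p = 0.00187). The groups did not overlap for either ligand. Stat92E, the transcription factor, and Su(var)2-10, a SUMO ligase that restrains it, were the 2 that fell, or 1 without Tip60dn replicate 2 or replicate 3 or control replicate 3 (log2 fold change -0.11 and -0.20).

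Apoptosis genes were divided, with 6 of 21 higher (egr, wgn, Diap2, rpr, Diap1 and Buffy) and 3 lower (Drice, Dredd and Bruce), against 22.4% and 21.7% of all genes. The effector caspase gene Drice had 96.5, 94.8 and 88 CPM in Tip60dn discs, against 121, 117 and 119 CPM in control discs (log2 fold change -0.35, SE 0.040, adjusted p = 0.000205). The death gene rpr stood at 29.6, 25.6 and 23.7 CPM in Tip60dn discs, against 19.5, 18.7 and 19.2 CPM in control discs (log2 fold change 0.46, SE 0.087, adjusted p = 0.0027), and Diap1, the main caspase inhibitor, at 1733, 2139.5 and 2376 CPM in Tip60dn discs, against 969, 1366 and 1117 CPM in control discs (log2 fold change 0.86, SE 0.20, adjusted p = 0.00666). In these 3 the groups did not overlap, and the genes that restrain caspases and those that promote death were both among those that rose.

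In the Xrp1 and integrated stress response list 6 of 13 rose (crc, Xrp1, Irbp18, Sesn, REPTOR-BP and Gcn2, 46.2%) and 2 fell (eIF2alpha and PPP1R15, 15.4%). Xrp1 (FBgn0261113, chromosome 3R, 18914968 to 18926989), a bZIP factor known from cells that lose ribosomal protein genes, had 834, 728 and 672 CPM in Tip60dn discs, against 497, 478 and 473 CPM in control discs (log2 fold change 0.62, SE 0.10, adjusted p = 0.000867). Its dimer partner gene Irbp18 rose by 0.44 log2 (SE 0.071, adjusted p = 0.00108). The fly ATF4 gene, crc, had 1716, 1807 and 1773 CPM in Tip60dn discs, against 1239, 1237 and 1275 CPM in control discs (log2 fold change 0.50, SE 0.035, adjusted p = 1.88e-05), and 73.47% of its exon bases overlap CG46314 on the same strand, so the reads cannot be assigned to crc alone. Heat shock genes had 6 of 23 higher (Hsc70-4, Hsp70Ba, Hsp67Bc, Hsp70Bb, Hsp60A and Hsp83), a share of 26.1% near the 22.4% over all genes, and 2 lower (Hsp67Ba and Hsf). Hsp70Ba had 23, 23.6 and 28.1 CPM in Tip60dn discs, against 6.33, 16.6 and 7.34 CPM in control discs (log2 fold change 1.30, SE 0.30, adjusted p = 0.00748) and Hsc70-4, the constitutive chaperone, rose by 0.23 (adjusted p = 0.00505). The Hsp70 copies are nearly identical, so the split of reads between them is uncertain, and 75.94% of the exon bases of Hsp67Ba, which fell by 0.44, lie opposite asRNA:CR43481.

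DNA damage response genes had 11 of 32 lower and 4 higher. The lower share was near the 33.6% of all genes at 10 CPM or more, and the higher share was under the 22.4% over all genes. Pms2, of mismatch repair, had 51.7, 49.2 and 49.7 CPM in Tip60dn discs, against 69.9, 68.4 and 67.1 CPM in control discs (log2 fold change -0.45, SE 0.051, adjusted p = 0.000208), and grp, the fly Chk1 kinase, fell to 0.792 times the control level (adjusted p = 0.000672). The photolyase gene phr stood at 27.8, 30.2 and 24.9 CPM in Tip60dn discs, 26.4, 23.1 and 22.2 CPM in Tip60wt discs and 42.3, 48.1 and 42.4 CPM in control discs, so both transgene groups lay below the control. The members that rose were okr, nbs, Ku80 and Rad9. In the detoxification list 15 of 39 fell (38.5%) and 9 rose (23.1%, near the 22.4% over all genes). GstD1, a glutathione transferase, had 790.1, 854 and 814 CPM in Tip60dn discs, 769, 765 and 802 CPM in Tip60wt discs and 459, 475 and 473 CPM in control discs (Tip60dn over control: log2 fold change 0.81, SE 0.038, adjusted p = 2.46e-06). Its relative GstD9 had 31.8, 28.9 and 27.3 CPM in Tip60dn discs, 47.4, 42.5 and 40.3 CPM in Tip60wt discs and 59, 60.4 and 56.6 CPM in control discs (Tip60dn over control: log2 fold change -1.0, SE 0.071, adjusted p = 1.91e-05). Tip60wt against control was also called for both, GstD1 higher (log2 fold change 0.73, adjusted p = 9.1e-06) and GstD9 lower (-0.43, adjusted p = 0.0083). The cytochrome P450 gene Cyp4e2 fell to 0.502 times the control level (adjusted p = 3.66e-05).

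The transgene's own complex was divided. Among 17 NuA4 genes, 7 were called higher (41.2%) and 5 lower (29.4%), against 22.4% and 21.7% over all genes. The 7 include Tip60, whose counts hold the transgene, so its rise was set by the design and says nothing of the complex. The others that rose were Gas41, Nipped-A, dom, Brd8, E(Pc) and YL-1, and those that fell were Bap55, MRG15, pont, rept and His2Av. Bap55, an actin-related protein gene, had 127, 126 and 125 CPM in Tip60dn discs, against 149, 148 and 150.4 CPM in control discs (log2 fold change -0.24, SE 0.033, adjusted p = 0.000491), and the chromodomain subunit gene MRG15 had 47.7, 46.6 and 47.3 CPM in Tip60dn discs, against 54.4, 54.9 and 55.2 CPM in control discs (log2 fold change -0.22, SE 0.030, adjusted p = 0.000495). Nipped-A, the scaffold of the complex, rose by 0.35 log2 (SE 0.071, adjusted p = 0.00392), dom by 0.16 (SE 0.035, adjusted p = 0.0048), and His2Av, which encodes the variant that the complex exchanges, fell by 0.20 (SE 0.050, adjusted p = 0.0108). These last 3 were chosen after their values were seen. Other acetyltransferases and deacetylases had 5 of 19 lower (HDAC1, Elp3, chm, Hat1 and Taf1), a share of 26.3% near the 21.7% over all genes, and 2 higher (Sirt2 and Gcn5). The higher count was 1 with no filter or without control replicate 1 or replicate 3, and 5 with the 1 CPM filter or when the fit held the 6 libraries alone. HDAC1, a class I deacetylase, fell to 319, 263 and 252 CPM in Tip60dn discs, against 390.3, 389.9 and 391 CPM in control discs (log2 fold change -0.49, SE 0.087, adjusted p = 0.00194).

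Other chromatin lists differed in their counts, to be read against 21.7% lower over all genes and 33.6% lower among genes at 10 CPM or more. The trithorax list had 12 of 28 lower (42.9%) and 1 higher (kto), with a median of -0.09. The call of kto was lost without Tip60dn replicate 2 or replicate 3 and without control replicate 1 or replicate 3. Acf, E(bx) and Mi-2, all subunits of nucleosome remodellers, fell to 0.819, 0.795 and 0.84 times the control level (adjusted p = 9.38e-05, 0.000147 and 0.000404). Polycomb group and Hox genes had 10 of 23 lower, or 6 without Tip60dn replicate 2, and 2 higher (lab and ph-p, or 1 gene without control replicate 1 or replicate 3 and with no filter). The genes that fell belong to the Polycomb group or its cofactors, and among them esc had 19.2, 17.7 and 17.1 CPM in Tip60dn discs, against 24.7, 24.2 and 23.6 CPM in control discs (log2 fold change -0.42, SE 0.065, adjusted p = 0.000879), Scm fell by 0.24 log2 (adjusted p = 0.00136) and Sfmbt by 0.19 (adjusted p = 0.00179). In the piRNA and germline list 9 of 31 rose (29.0%) and 8 fell (25.8%), shares near the 22.4% and 21.7% over all genes. The Tudor gene qin had 21.7, 26.3 and 31 CPM in Tip60dn discs, against 9.08, 9.04 and 8.85 CPM in control discs (log2 fold change 1.55, SE 0.13, adjusted p = 3.99e-05), and papi, a Tudor gene of the mitochondrial surface, fell by 0.29 (SE 0.032, adjusted p = 0.000179). A fall of 0.43 log2 for armi (adjusted p = 1.37e-05) is uncertain because 99.59% of its exon bases overlap CG46463 on the same strand.

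Several genes best known from neurons rose. In the synaptic and neuronal list 21 of 40 tested genes rose (52.5%, against 22.4% over all genes) and 3 fell (elav, nrv2 and robo1, 7.5%). Another 11 of the 51 matched members did not pass the filter on low counts, so the count is not over the whole list and leans towards members that are high in some group. Appl (FBgn0000108, chromosome X, 530501 to 579044), the amyloid precursor homolog of neurons, had 13.1, 13.6 and 15.1 CPM in Tip60dn discs, 3.12, 3.61 and 3.42 CPM in Tip60wt discs and 3.18, 3.44 and 2.75 CPM in control discs (Tip60dn over control: log2 fold change 2.16, SE 0.11, adjusted p = 3.05e-06). The Bruno family RNA-binding protein gene bru3 had 12.4, 13.4 and 10.7 CPM in Tip60dn discs, 0.419, 0.257 and 0.272 CPM in Tip60wt discs and 0.302, 0.417 and 0.514 CPM in control discs (log2 fold change 4.89, SE 0.25, adjusted p = 3.05e-06). Both stood at a similar low level in all Tip60wt and control libraries, below every Tip60dn library. The vesicle priming factor gene unc-13 had 1291, 1274 and 1308 CPM in Tip60dn discs, 607, 596 and 628 CPM in Tip60wt discs and 444, 421 and 431 CPM in control discs (log2 fold change 1.58, SE 0.035, adjusted p = 1.68e-08), with 25.21% of its exon bases opposite asRNA:CR43425. In unc-13 the Tip60wt libraries were also above the control (log2 fold change 0.50, adjusted p = 5.13e-05).

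The pan-neuronal RNA-binding protein gene elav (FBgn0260400, chromosome X, 509235 to 523226) went the other way, with 33.9, 27.9 and 32.6 CPM in Tip60dn discs, against 65.9, 62.6 and 63.3 CPM in control discs (log2 fold change -1.02, SE 0.073, adjusted p = 1.91e-05), although 27.94% of its exon bases share a strand with lncRNA:enrr. In the proneural and sense organ list 7 of 19 genes rose (pdm3, pros, ac, svp, insc, sqz and sc) and 1, elav, fell. The count of 7 was 4 without Tip60dn replicate 3, without control replicate 1 or without control replicate 3. Among them pdm3, a POU factor gene, had 72, 76.6 and 82.6 CPM in Tip60dn discs, against 55, 58.6 and 56.1 CPM in control discs (log2 fold change 0.45, SE 0.084, adjusted p = 0.00258), and pros, a factor of neural precursors, had 2.01, 2.36 and 3.11 CPM in Tip60dn discs, against 0.927, 0.542 and 1.15 CPM in control discs (log2 fold change 1.52, SE 0.30, adjusted p = 0.00329). In both, every Tip60dn library was above every control library.

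In families with many low-level genes the filter decides which members are tested. Of the 124 matched cuticle protein genes 68 did not pass it, and of the 56 tested 19 rose and 1 fell, or 3 fell without Tip60dn replicate 2. Members near 0 in the control passed only where another group was high, so these counts describe single genes and not the family. TwdlC, a Tweedle cuticle protein gene, had 5.31, 5.8 and 6.23 CPM in Tip60dn discs, 0.012, 0.043 and 0 CPM in Tip60wt discs and 0, 0.01 and 0 CPM in control discs. Its 1470 counts in Tip60dn discs against 1 in control discs give a ratio of 1497, for which counting error alone allows 268.3 to 59170 (95% exact interval). Cpr65Ec had 31.8, 33.9 and 33.4 CPM in Tip60dn discs, against 17.4, 16.7 and 19 CPM in control discs (log2 fold change 0.90, SE 0.093, adjusted p = 0.000119), and the 1 that fell, Cpr64Aa, had 25.2, 25.3 and 23.3 CPM in Tip60dn discs, against 45.8, 52.2 and 39.1 CPM in control discs (log2 fold change -0.89, SE 0.10, adjusted p = 0.000237). With a filter of 1 CPM in 3 libraries 12 cuticle genes were higher.

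Among methuselah-like receptors, a family of G protein coupled receptors, 6 of 14 rose and 3 fell (mth, mthl4 and mthl3), and the higher count was 3 without Tip60dn replicate 3 or control replicate 2. Among the genes that met the naming rule the largest fold change was that of mthl8 (FBgn0052475, chromosome 3L, 22428 to 26308), which had 23, 33.8 and 36.2 CPM in Tip60dn discs, 0.058, 0.15 and 0.142 CPM in Tip60wt discs and 0, 0.021 and 0 CPM in control discs. Its counts were 7729 in Tip60dn discs and 2 in control discs, a ratio of 3935 (1089 to 32500 by counting error). The gene was therefore nearly absent from the control and present in every Tip60dn library. Of its relatives, mth itself fell by 0.35 log2 (adjusted p = 4.75e-05) and mthl4 by 0.39 (adjusted p = 0.000186).

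Odorant, gustatory, ionotropic and ppk receptor genes had 160 members that did not pass the filter. Of the 54 tested 16 were higher, a share of 29.6% against 26.3% of all genes under 10 CPM, and 3 lower (Ir76a, Gr66a and Ir25a). The higher count was 10 without Tip60dn replicate 3 and 8 with the 1 CPM filter, and the lower count was 1 without control replicate 3 or with the 1 CPM filter. Ir40a, a humidity receptor gene, had 2.46, 2.46 and 2.19 CPM in Tip60dn discs, 0.686, 0.45 and 0.414 CPM in Tip60wt discs and 0.168, 0.167 and 0.171 CPM in control discs (log2 fold change 3.80, SE 0.26, adjusted p = 1.57e-05), and ppk29, a sodium channel gene of the pheromone-sensing neurons, had 11.5, 13 and 12.7 CPM in Tip60dn discs, against 6.53, 6.83 and 6.77 CPM in control discs (log2 fold change 0.89, SE 0.075, adjusted p = 4.67e-05). The ppk8 gene, of the same channel family, stayed near or under 1 CPM, with 0.736, 0.95 and 1.01 CPM in Tip60dn discs, against 0.123, 0.115 and 0.119 CPM in control discs. All 3 had separate groups. Of 9 tested Osiris genes, Osi14 and Osi15 rose (22.2%, against 22.4% over all genes) and 0 fell, and the count that rose was 4 when the fit held the 6 libraries alone and 1 with the 1 CPM filter or without control replicate 3. Osi14 had 9.52, 6.29 and 7.08 CPM in Tip60dn discs, against 5.1, 5.6 and 4.23 CPM in control discs (log2 fold change 0.62, SE 0.16, adjusted p = 0.0123), a call lost without control replicate 3 (adjusted p = 0.0514).

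Patterning genes of the wing were slightly higher. Of 56 in the regional patterning list 26 rose (46.4%) and 2 fell (3.6%), with a median log2 fold change of 0.16. Over all genes 22.4% rose and 21.7% fell. The 2 that fell were exd and smo, or 1 gene without Tip60dn replicate 2 or replicate 3 or control replicate 3. The count of 26 was 13 without Tip60dn replicate 3, 14 without control replicate 1 and 15 without control replicate 3. The Notch target E(spl)m3-HLH had 63.2, 60.8 and 64.6 CPM in Tip60dn discs, against 51.7, 49.8 and 52.5 CPM in control discs (log2 fold change 0.29, SE 0.042, adjusted p = 0.000655), and toe, a Pax factor gene, had 47.1, 49.6 and 47.9 CPM in Tip60dn discs, against 29, 33.7 and 30.7 CPM in control discs (log2 fold change 0.63, SE 0.093, adjusted p = 0.000738). Their libraries did not overlap. The Hox cofactor gene exd fell by 0.27 log2 (SE 0.041, adjusted p = 0.000916). Of the 16 wing disc identity genes 7 rose (pdm2, Doc2, Doc1, nub, tsh, caup and ara, 43.8%) and 0 fell. The count was 3 without Tip60dn replicate 3 or control replicate 1 and 4 without control replicate 3. Over all genes 1839 of 10960 were higher without Tip60dn replicate 3, 1695 of 10947 without control replicate 1 and 1718 of 11015 without control replicate 3. The most abundant wing disc identity genes, zfh2, hth and sd, had log2 fold changes of -0.04, 0.07 and -0.01 (adjusted p = 0.485, 0.323 and 0.802).

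Hippo pathway genes had 9 of 23 higher (kibra, dlp, Myc, crb, dally, Diap1, jub, ft and fj) and 3 lower (Zyx, CycE and mats). The upstream activator gene kibra had 97.6, 95.2 and 92.6 CPM in Tip60dn discs, against 69.8, 70.6 and 70.7 CPM in control discs (log2 fold change 0.43, SE 0.035, adjusted p = 3.72e-05), and dlp, a glypican gene, rose to 1.28 times the control level (adjusted p = 0.000132). Zyx, a cytoskeletal regulator of the pathway, fell to 0.831 times (adjusted p = 0.00161). In the basement membrane and matrix list 14 of 20 rose (Timp, mys, if, dlp, Mp, Mmp1, dally, Mmp2, SPARC, Col4a1, Pxn, vkg, LanB1 and mew) and 0 fell. The count was 8 without Tip60dn replicate 2, Tip60dn replicate 3, control replicate 1 or control replicate 3. Timp, the metalloproteinase inhibitor gene, had 8.73, 9.28 and 10.2 CPM in Tip60dn discs, against 4.26, 4.51 and 4.68 CPM in control discs (log2 fold change 1.07, SE 0.10, adjusted p = 6.5e-05), and the integrin genes mys and if rose by 0.26 and 0.40 log2 (adjusted p = 0.000108 and 0.000109). Several of these genes, among them Pxn and Col4a1, are also made by hemocytes, whose summed markers were 668 to 1033 CPM in Tip60dn discs and 586 to 631 CPM in control discs, and the part of hemocytes in these counts was not tested.

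Ecdysone and timing genes had 9 of 29 higher (Eip74EF, Eip78C, Eip63E, Eip93F, ImpL2, mamo, ImpE1, tai and Eip75B, 31.0%) and 2 lower (6.9%). The 2 were Hr78 and usp, or 1 gene without Tip60dn replicate 2, control replicate 1 or control replicate 2. Eip74EF, an early ecdysone response gene, had 168, 179 and 185 CPM in Tip60dn discs, against 118, 129 and 123 CPM in control discs (log2 fold change 0.52, SE 0.064, adjusted p = 0.0003), and Eip78C, an ecdysone-induced nuclear receptor gene, had 91.5, 90.2 and 84.9 CPM in Tip60dn discs, against 48, 36.9 and 56.4 CPM in control discs (log2 fold change 0.92, SE 0.16, adjusted p = 0.00183). In the Toll, Imd and peptide list 10 of 33 rose (30.3%) and 5 fell (GNBP1, SPE, modSP, Myd88 and cact, 15.2%). The higher count was 6 without control replicate 2. The receptor gene Tl had 151, 149 and 157 CPM in Tip60dn discs, against 103, 103 and 110.5 CPM in control discs (log2 fold change 0.53, SE 0.039, adjusted p = 2.42e-05), and GNBP1, a recognition protein of the Toll pathway, had 70.4, 63.6 and 61.2 CPM in Tip60dn discs, against 97, 95 and 99.8 CPM in control discs (log2 fold change -0.58, SE 0.055, adjusted p = 8.31e-05). The thioester protein gene Tep2 had 113, 111 and 114 CPM in Tip60dn discs, 138, 135 and 142 CPM in Tip60wt discs and 90.2, 85.2 and 90.0 CPM in control discs, and there the Tip60wt level was the highest of the groups.

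Markers of cells attached to the disc moved as well. Among 18 tested hemocyte genes 9 rose (ush, PPO3, Tig, Mmp2, eater, Hml, Pxn, PPO2 and srp) and 1, Fer2LCH, fell. Without Tip60dn replicate 2, Tip60dn replicate 3 or control replicate 1 the count was 5. Hml, a hemocyte clotting protein gene, had 60.8, 177 and 183 CPM in Tip60dn discs, against 57.9, 61.3 and 63.2 CPM in control discs, so Tip60dn replicate 1 lay within the control range, and its call (adjusted p = 0.0168) was lost without Tip60dn replicate 2 or replicate 3 or without control replicate 1 or replicate 2. Muscle and myoblast genes had 15 of 33 higher (45.5%) and 2 lower (6.1%). The 2 were Msp300 and Tm1, the most abundant members, or 1 gene in each fit without 1 of the 6 libraries other than Tip60dn replicate 2. The higher count was 7 without control replicate 1, 9 without control replicate 3 and 9 in limma-voom. The summed level of the list overlapped between the groups, at 3625 to 3944 CPM in Tip60dn discs and 3741 to 3811 CPM in control discs. Zasp52, a Z-disc gene, rose by 0.43 (adjusted p = 0.000982).

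Of 17 tracheal genes 10 rose and 1, knk, fell, with summed levels of 4783 to 4981 CPM in Tip60dn discs and 3968 to 4117 CPM in control discs. Without control replicate 1 or control replicate 3 the number that rose was 6, and the call of knk was lost without Tip60dn replicate 2 or control replicate 1. The zona pellucida gene pio had 873, 804 and 815 CPM in Tip60dn discs, against 591, 511 and 646 CPM in control discs (log2 fold change 0.51, SE 0.090, adjusted p = 0.00182). In the fat body list 0 of 15 rose and 1, Lsd-1, fell, a call lost without control replicate 1 or replicate 3. Of 10 tested salivary gland genes edgeR called 0, as did DESeq2, and 3 had an unadjusted p under 0.05; 2 were called higher without control replicate 1, 2 lower without control replicate 2 and 4 lower without control replicate 3. Among 9 tested male markers 4 rose (lncRNA:roX2, lncRNA:roX1, topi and msl-2) and 1, msl-1, fell. The dosage compensation RNA gene lncRNA:roX1 had 434, 465 and 519.9 CPM in Tip60dn discs, against 209, 272 and 329.7 CPM in control discs (log2 fold change 0.81, SE 0.15, adjusted p = 0.0022), and the summed male markers were 846 to 951 CPM in Tip60dn discs and 594 to 743 CPM in control discs. The labels give no sex for the discs of a library, and its part in this result was not tested.

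At the extremes of the fold change, some genes set Tip60dn apart and others set both transgenes apart from the control. The digestive enzyme genes betaTry, Jon99Fi and epsilonTry reached 18.4, 16.4 and 23.5 CPM in Tip60dn replicate 2 and at most 1.04 CPM in the other Tip60dn libraries, and their calls were lost without that library (adjusted p = 0.0857, 0.0928 and 0.125), when any 1 of the control libraries was left out, and in limma-voom. CG7213 had 6.96, 6.78 and 8.25 CPM in Tip60dn discs, 7.11, 4.25 and 5.88 CPM in Tip60wt discs and 0, 0.031 and 0 CPM in control discs. Root (FBgn0039152, chromosome 3R, 24113286 to 24128193), which encodes the rootlet protein of ciliated sense organs, had 0.566, 0.671 and 0.771 CPM in Tip60dn discs, 0.419, 0.364 and 0.531 CPM in Tip60wt discs and 34.1, 33.9 and 31.9 CPM in control discs. CG17186 had 11.6, 10.2 and 12.1 CPM in Tip60dn discs, 8.92, 10.8 and 10.3 CPM in Tip60wt discs and 35.6, 35.3 and 35.8 CPM in control discs, and CG33099 had 2.85, 1.83 and 2.35 CPM in Tip60dn discs, 3.68, 2.81 and 2.41 CPM in Tip60wt discs and 8.02, 7.07 and 7.18 CPM in control discs. In these 4 genes the Tip60wt libraries lay with the Tip60dn libraries and not with the control. The comparisons of Tip60dn and of Tip60wt with the control share the control libraries, so such genes are listed with the levels of all 3 groups.

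For CG5535 and CG10559 the Tip60wt level was nearer the control, and for CG15080 it lay between the groups. CG5535 had 14.8, 7.77 and 8.1 CPM in Tip60dn discs, 34.5, 25.3 and 24 CPM in Tip60wt discs and 40.4, 39.8 and 37 CPM in control discs (log2 fold change -1.93, SE 0.24, adjusted p = 0.0003). CG10559 had 1.24, 1.45 and 1.63 CPM in Tip60dn discs, 4.19, 5.24 and 4.8 CPM in Tip60wt discs and 4.9, 5.63 and 5.32 CPM in control discs (log2 fold change -1.88, SE 0.14, adjusted p = 2.82e-05). CG15080 had 1.66, 2.0 and 1.44 CPM in Tip60dn discs, 5.78, 4.07 and 4.31 CPM in Tip60wt discs and 9.18, 10.7 and 7.98 CPM in control discs (log2 fold change -2.45, SE 0.18, adjusted p = 2.63e-05). Over all genes, Tip60wt against control gave 222 higher and 209 lower of 10598 (2.09% and 1.97%, together 4.07%), from the same fit and the same control libraries. In the lists above it called 0 of 61 mitosis genes, 0 of 38 S phase genes, 3 of 36 proteasome genes (all lower) and 0 of 83 cytosolic ribosomal protein genes. Other lists held more Tip60wt calls, with 4 higher and 1 lower of 39 detoxification genes and 2 higher and 3 lower of 40 synaptic and neuronal genes. Among the 54 odorant, gustatory, ionotropic and ppk receptor genes 3 were higher and 2 lower. The smaller numbers with Tip60wt do not test whether the transgenes differ.

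**Figure D5:**
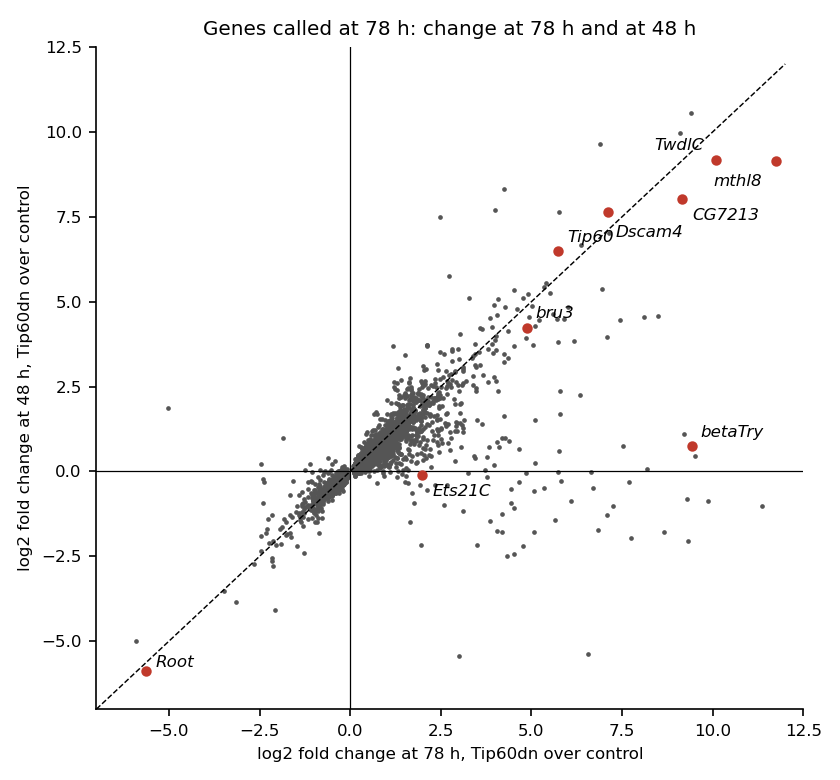
Log2 fold change of Tip60dn over control at 78 h (x axis) and at 48 h (y axis) for the genes called at 78 h and tested at both durations, with equal changes on the dashed line and 9 genes labelled in red, chosen with the values known. Most points lie near the line, while Ets21C (1.98 at 78 h) lies at -0.10 at 48 h and betaTry at 0.76.

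The 48 h libraries, made from other discs, gave a second measurement of the same contrast. There 2098 of 10693 genes were higher (19.6%) and 2074 lower (19.4%), together 39.0%. Of the 2378 genes higher at 78 h, 1572 were also called higher at 48 h, which is 66.1% of the 78 h list and 74.9% of the 48 h list, and 4 were called lower. Of the 2305 genes lower at 78 h, 1719 were also called lower at 48 h, which is 74.6% of the 78 h list and 82.9% of the 48 h list, and 0 were called higher. Among genes at least 2-fold higher at 78 h, 488 of 846 were called in the same direction and at least 2-fold higher at 48 h.

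Many named genes had a like change at 48 h. Klp67A had a log2 fold change of -0.51 at 78 h and -0.46 at 48 h, Dp -0.39 and -0.43, egr 1.19 and 1.13, Appl 2.16 and 2.19, and RpL8 0.43 and 0.44. Ets21C was called at 78 h (1.98) and not at 48 h (-0.10, SE 0.95, adjusted p = 0.947), where its level was 7.91 ± 6.01 CPM in Tip60dn discs and 8.47 ± 12.2 CPM in control discs (SD, n = 3 each). For upd2 the 48 h value was 0.55 (SE 0.93, adjusted p = 0.677), with 2.96 ± 2.90 CPM in Tip60dn discs and 2.02 ± 2.64 CPM in control discs (SD, n = 3 each). The 48 h libraries of both genes were widely spread, and the difference between durations was not called for either (edgeR adjusted p = 0.732 for Ets21C and 0.848 for upd2). The digestive enzyme gene betaTry had 0.76 at 48 h. Cytosolic ribosomal proteins had 73 of 82 higher at 48 h, and JNK genes 8 of 30 higher. Mitochondrial ribosomal proteins had 6 lower and 17 higher of 72 at 48 h, against 18 lower and 6 higher at 78 h. The 48 h counts are to be read against 19.6% higher and 19.4% lower over all genes at 48 h. Whether a list differed between durations was not tested.

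The difference of the Tip60dn effect between durations was tested directly, as an interaction over all 18 libraries. edgeR called 0 of 11173 genes, with 777 at an unadjusted p under 0.05 (6.95%), and DESeq2 called 31, of which 24 were higher at 78 h and 7 lower. On simulated counts at this size the same edgeR test recovered 93% of 100 genes that differed by 1 log2 unit. It recovered 68% of 100 that differed by 0.5. No rate was measured for low genes or by spread between libraries, so these rates set no limit on differences of low or variable genes. The estimated difference was 2.07 log2 units (SE 1.1) for Ets21C and 1.41 (SE 1.10) for upd2, and neither was called. A change called at only one duration was therefore not shown to differ between them by edgeR at this threshold.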

How the data were processed

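Polyadenylated RNA of wing discs was sequenced by the authors from directional libraries, per the labels. The authors deposited a table of whole-number counts per FlyBase gene per duration. The submitters' processing notes name FastQC, featureCounts, limma, edgeR 3.13.4 and the build BDGP6. For the aligner, annotation release, strand setting and multiply mapped reads, the choice made is not given in the sources used here. Symbols and coordinates came from Ensembl release 115 of BDGP6, matched by identifier for 17253 of 17559 genes; the 306 without a symbol held 5.73% to 6.00% of the 78 h counts and were tested unnamed.

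The counts were analysed with R 4.3.3 and edgeR 4.0.16. The 9 libraries of 78 h, 3 per group, were fitted together with group as the only term, after filterByExpr (minimum count 10), with TMM scaling. The quasi-likelihood test was two-sided, and p was adjusted by Benjamini-Hochberg over 10598 genes. The common biological coefficient of variation was 0.192. Alternatives used DESeq2 1.42.0, limma 3.58.1, other filters and scalings, and omission of each library. The interaction between durations used all 18 libraries. On simulated counts the test recovered 99% of 100 genes changed by 1 log2 unit and 79% of 100 changed by 0.5. There were 8 false calls among 10442 genes. No rate was measured for low genes, so the recovery does not apply to them. Far fewer genes were changed in the simulation than were called in the data, so the rates may differ for the real counts.

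Members of 42 gene lists (26 of biology, 9 of families, 7 of tissues) were matched by symbol, 1002 of 1126 entries; a midgut list was added later. The comparison and lists were chosen with earlier results of these data known. Genes were named by rule: 7 regulators, the 6 highest and 6 lowest fold changes with at least 5 CPM and no overlap, the 3 smallest adjusted p of each list, and the 3 most abundant of each tissue list. A gene that the rule names is not reported here. Replicate numbers did not pair Tip60dn with control libraries at 78 h (residual correlations -0.044, -0.1 and -0.066). Counting intervals cover counting error only.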

Additional observations from a re-analysis of the deposited data

How the results depend on the processing

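Across alternative scalings, filters and tools the main comparison gave 4260 to 4951 called genes, against 4683, with 2017 to 2485 higher and 2141 to 2477 lower. Leaving out 1 library gave 3610 to 4714, with 1695 to 2329 higher and 1889 to 2385 lower. The replicate numbers share no stated source; with them as a replicate block 2355 genes were higher and 2310 lower, and at 78 h no Tip60dn library matched its own control number best, while at 48 h all 3 did (residual correlations 0.111, 0.028 and 0.073). Of 125 called named genes, 117 were called under every setting that tested them (14, or 13 for ppk8 and Osi15), and betaTry, Jon99Fi, epsilonTry, Hml, Tm1, vvl, Msp300 and Osi14 were lost under at least 1.

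For the interaction between durations edgeR called 0 genes, the replicate block 4, all higher, and DESeq2 31 (24 higher, 7 lower). Leaving out 1 library gave 0 to 7 in all, 0 to 1 higher and 0 to 6 lower, with 1 higher without Tip60dn 78 h replicate 3, and 1 higher and 6 lower without Tip60dn 48 h replicate 3. The cause was not tested.

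Signs turned for genes that were not called, with the log2 fold changes given here. CrebA had -0.007 with library sizes only and -0.018 with no filter, and leaving out 1 library gave -0.085 to 0.069. Desat1 had -0.005 with no filter and sd 0.007 with the 1 CPM filter; leaving out 1 library gave -0.003 to 0.055 for Desat1, -0.035 to 0.004 for sd and -0.033 to 0.080 for stg. Sgs3 ran from -3.76 to 1.54, the highest value being that without control replicate 1.

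Each library of 78 h held 72693686 counts or more. Folds of genes near 0 CPM in the control rest on few control counts, and how depth limited the calls at other levels was not measured.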

Other observations

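A few genes outside the naming rule were chosen after their values were seen. The cell adhesion gene Dscam4 stood at 91.1, 89.4 and 96.1 CPM in Tip60dn discs, 86.2, 54.9 and 66.1 CPM in Tip60wt discs and 0.826, 0.657 and 0.514 CPM in control discs. Dnaaf3, a dynein assembly factor gene, had 5.54, 7.35 and 7.09 CPM in Tip60dn discs, 5.94, 6.72 and 6.72 CPM in Tip60wt discs and 0.022, 0.084 and 0.026 CPM in control discs. The Yb-body gene SoYb of the piRNA pathway had 7.13, 5.69 and 7.43 CPM in Tip60dn discs, 5.47, 7.85 and 8.97 CPM in Tip60wt discs and 19.5, 18.9 and 17.4 CPM in control discs. In these 3 genes the Tip60wt libraries lay with the Tip60dn libraries. Among piRNA genes the Piwi-family gene aub had 1.49, 3.14 and 3.08 CPM in Tip60dn discs, against 0.815, 0.553 and 0.935 CPM in control discs (log2 fold change 1.74, adjusted p = 0.00237 in edgeR's test). Its relative AGO3 had 3.75, 4.81 and 6.47 CPM in Tip60dn discs, against 2.3, 2.59 and 2.52 CPM in control discs (log2 fold change 1.02, adjusted p = 0.0147). The SNARE gene Snap25 had 10.6, 12.9 and 14.9 CPM in Tip60dn discs, against 1.35, 0.918 and 1.25 CPM in control discs (log2 fold change 3.45, adjusted p = 5.35e-05).

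Of 25 tested midgut digestive enzyme genes, 22 were called higher in Tip60dn discs and 3 without Tip60dn replicate 2. The list was assembled after the values were seen. Sgs3, a salivary glue gene, had 10.3, 32.5 and 56.9 CPM in Tip60dn discs, against 836, 16.6 and 6.1 CPM in control discs, with the highest value in control replicate 1.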
